A study of Mus musculus with 36 samples.

Results

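Gene expression was compared between the whole brains of newborn and young adult wild-type mice. The newborn group held 8 libraries from postnatal day 3 (P3) and the young adult group 5 libraries from postnatal day 56 (P56), 13 of the 36 libraries of the series, taken by their wild-type labels at these ages. All were from untreated C57BL/6J males, and total RNA of the whole brain was sequenced after preparation with a TruSeq kit that selects polyadenylated RNA and does not keep the strand. Further groups were used in places: 5 wild-type libraries from postnatal day 21 (P21, within the weaning ages the protocol gives), and 18 libraries labelled Myt1l heterozygote, 8 at P3, 5 at P21 and 5 at P56, from the same strain and sex. Myt1l encodes a neuronal zinc-finger transcription factor, and the labels do not describe the mutated allele; the protocol has wild-type and knock-out pups reared together. The labels do not say that the libraries of a group came from separate animals, so p-values measure the spread between libraries.

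In the days after birth the mouse brain is still dividing and wiring: cerebellar granule cell precursors proliferate, glial progenitors spread, and neurons extend axons and migrate. Over the following weeks oligodendrocytes wrap axons in myelin, synapses mature and exchange receptor subunits, astrocytes and microglia take on their adult form, and energy production rises. A net comparison of P56 with P3 shows the sum of these changes, and a gene that moved and came back in between appears in it as little changed.

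The values were counts that the submitters had normalized with DESeq2, given for 19164 genes with sums of 31913819 to 33555147 per library at P3 and 34475862 to 38202024 at P56. Read depth before normalization is unknown. Genes of the mitochondrial genome held 3.3% to 3.65% of the P3 sums and 5% to 7.37% of the P56 sums. Among the P3 libraries, 1 and 2 read highest for several genes of the adult brain, with Mbp at 19288 and 15537 against a group median of 4890.2. P21 library 5 had the lowest glial values of its group, for instance 285614 for Mbp against a median of 360830. P56 library 5 held pituitary transcripts, with growth hormone (Gh) at 15379 and prolactin (Prl) at 1816, and libraries 2 and 3 held less, with Gh at 558 and 1434. Neuronal, myelin and astrocyte markers (Snap25, Mbp, Slc1a2) were high at P56. Age was the only difference the labels give between the groups, so sequencing batch and age cannot be told apart. Myt1l itself was not lower at P3 in the libraries labelled heterozygote. It ranged over 10449.6 to 12051 (median 11167) in the P3 wild-type libraries and 14184 to 16585 (median 16144) in the P3 libraries labelled heterozygote. The libraries labelled heterozygote are therefore named by their label only.

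Most genes differed between the 2 ages. The numbers each way were nearly equal under the submitters' scaling, which sets each library level by its typical gene. Of 17906 genes that reached a normalized count of 10 in at least 5 of the 13 libraries, 6656 were higher at P56 (37.2%) and 6940 were lower (38.8%), in all 75.9%, at a Benjamini-Hochberg adjusted p under 0.05 in limma's moderated test on log2(normalized count + 1). A change of at least 2-fold was called for 2646 genes that rose (14.8%) and 2774 that fell (15.5%), and a change of at least 16-fold for 117 and 91. The lowest and highest library of the 2 ages did not overlap for 9612 genes (53.7%). In the middle of the distribution the log2 change was -0.02, with quartiles at -0.63 and 0.58. Scaling each library to a common total moved that median to -0.15 and the counts to 5624 higher and 8017 lower. The balance of directions thus depends on the scaling, and small changes are read here relative to a typical gene.

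Near the newborn level stood 5409 genes, those whose 95% interval for the P56 to P3 ratio lay wholly within 1.5-fold. Of these, 2579 still passed the test for a small difference. A further 1480 genes were neither called nor held within 1.5-fold, so for them the data show neither a change nor its absence. By gene class, of 15320 protein-coding genes tested 5955 rose and 5877 fell, whereas of 2230 long non-coding RNA genes 636 rose and 893 fell (median log2 change -0.23). Among 335 pseudogenes 55 rose and 164 fell (median -0.56); their reads can be shared with the parent gene, so these are uncertain.

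Among genes with a standard symbol, leaving out predicted and clone-named genes, the 12 that rose most included 4 of oligodendrocytes and 2 of cerebellar granule cells. Gabra6, the GABA-A receptor subunit of cerebellar granule cells (chr11:42306437-42321072, GRCm38), ranged over 0.922 to 17.7 (median 2.09) at P3 and read 3743, 4104, 779.9, 3721 and 1554 in P56 libraries 1 to 5. Its rise was the largest of the 12 (log2 change 9.35, SE 0.51, limma adjusted p = 8.49e-11), and every P56 library lay above every P3 library. Opalin, a membrane protein of oligodendrocytes, went from 0 to 8.34 (median 0.483) to 727, 1205, 618, 792 and 721 (log2 change 8.52, SE 0.56, limma adjusted p = 7.25e-10). Etnppl, an astrocytic enzyme of phosphoethanolamine breakdown, had a log2 change of 8.21, and Klk6, a protease of oligodendrocytes, one of 8.30. Pvalb, the calcium buffer of fast-spiking interneurons and Purkinje cells, stood at 49.2 ± 18.4 (SD, n = 8) at P3 and 5158 ± 1494 (SD, n = 5) at P56. The other genes with the largest rises were Cbln3 (6.53), a synaptic organiser of granule cells; Mog (6.49) and Mobp (6.38), both of myelin; Dao (6.47), which oxidises D-serine; Igfn1 (6.45); Gdf1 (6.43); and Scn4b (6.34), an auxiliary sodium channel subunit. Gdf1 is the exception in how it rose: it was listed at 0 in 5 of 8 P3 libraries, it shares its transcript with Cers1, and the sources used here do not say how reads were split between the 2.

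By the same choice, the 12 genes that fell most included foetal RNA-binding proteins and a guidance factor of axons. Igf2bp3, an RNA-binding protein of foetal tissues, ranged over 156 to 318 (median 272) at P3 and read 1.08, 2.00, 0, 2.08 and 0 at P56 (log2 change -7.07, SE 0.30, limma adjusted p = 3.97e-12). Its paralog Igf2bp1 had a log2 change of -6.35, and the imprinted growth-restricting RNA H19 one of -5.97. Draxin, a repellent of growing axons, stood at 2741 ± 550.2 (SD, n = 8) at P3 and 43.6 ± 11.2 (SD, n = 5) at P56. St8sia2, the sialyltransferase that adds polysialic acid to NCAM, was among the abundant genes of the newborn brain at 6845 to 10116 (median 9327) and read 132, 163, 159.8, 224 and 193 at P56 (log2 change -5.70, SE 0.12, limma adjusted p = 2.48e-15). All of these had P56 ranges wholly below P3. Akr1c19 (-6.08), Hsd11b2 (-5.79), the enzyme that inactivates glucocorticoids, P2rx2 (-5.67), an ATP-gated channel, and Adamts7 (-5.56), a matrix protease, also fell. The remaining 3 of these 12 were the pseudogenes Rps6-ps4 and Eif4a-ps4 and the histone gene Hist2h2aa2, whose counts can move between near-identical copies and are uncertain; Rps6-ps4 and Hist2h2aa2 were listed at 0 in all P56 libraries. Among the predicted genes left out, some such as the pseudogenes Gm10222 and Gm5641 fell further and were also listed at 0 in all P56 libraries.

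**Figure D1:**
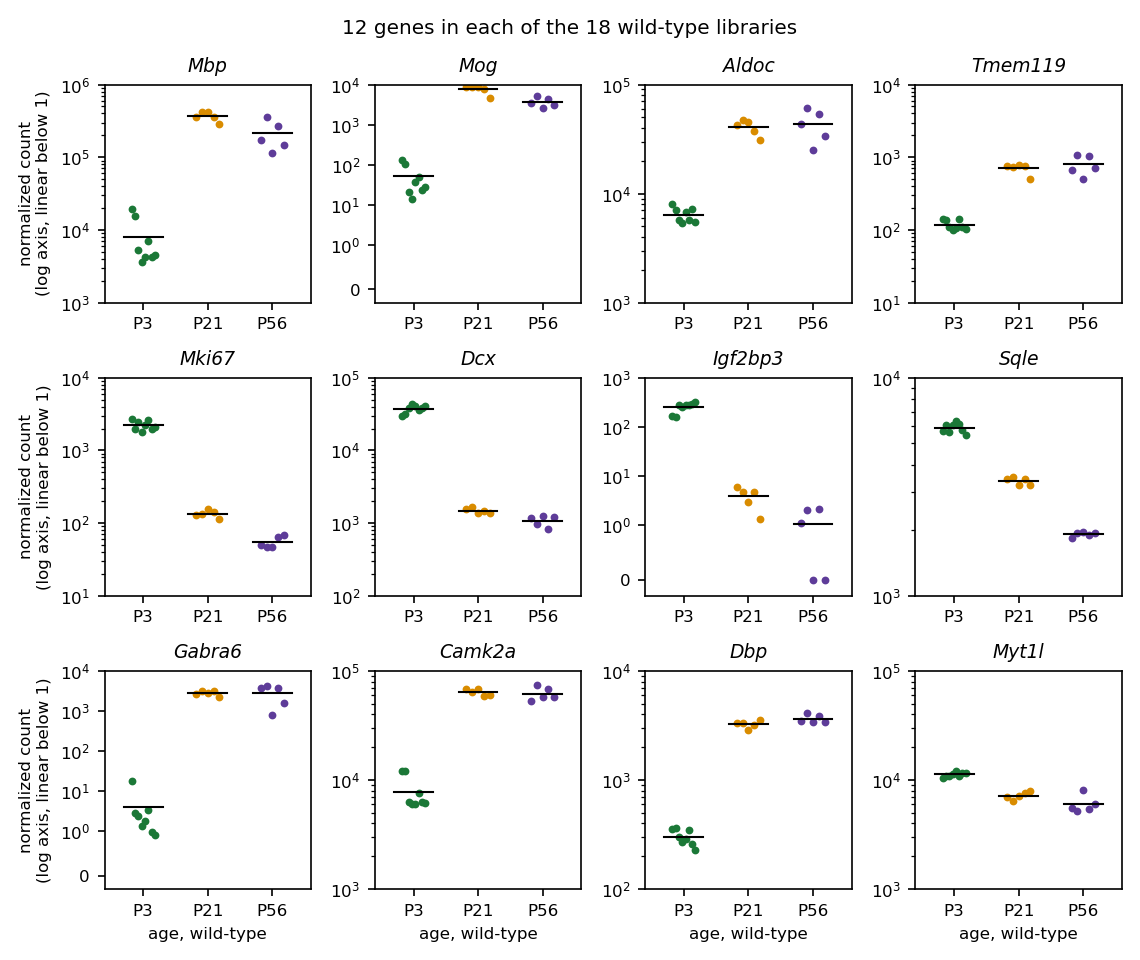
Normalized count on a log axis (linear below 1 in the panels that reach 0) for 12 genes in each wild-type library, with points for libraries in replicate order and black lines for group means of the 8 P3, 5 P21 and 5 P56 libraries. The P3 and P56 points do not overlap in any of the 12 panels, and P3 libraries 1 and 2 stand above their group for Mbp and P56 library 3 above its group for Myt1l.

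Genes were next grouped into 36 lists by cell type, pathway or role. Some genes stand in several lists, such as Gabra6 in the GABA and the cerebellar list, so the counts of different lists are not separate observations. As a yardstick, 37.2% of all tested genes rose, 38.8% fell and their median log2 change was -0.02. In whole tissue, more cells of a type and more RNA per cell cannot be told apart. Myelin genes formed the most uniform rise: all 29 members rose, with a median log2 change of 3.61. Mbp, the basic protein that compacts the myelin sheath, ranged over 3618 to 19288 (median 4890.2) at P3 and read 175202, 356518, 116067, 268954 and 147776 at P56 (log2 change 4.91, SE 0.44, limma adjusted p = 2.18e-07). The smallest p-values in the list belonged to Ermn (5.50), a cytoskeletal protein of myelinating processes, Trf (4.78), the iron carrier transferrin, Mal (6.23) and Hapln2. Only Sox10 (0.72), the lineage transcription factor, and Enpp6 (1.27), a marker of newly formed oligodendrocytes, had overlapping libraries at the 2 ages. Summed over the list, the lowest P56 library (289741) was several times the highest P3 library (48322).

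Oligodendrocyte precursor genes moved both ways, 3 up and 8 down of 15, with 4 not called. Pdgfra, the growth factor receptor that defines the precursor, ranged over 3530.1 to 4675 (median 4086) at P3 and read 1409.8, 1307, 1066, 1213 and 1404 at P56 (log2 change -1.69, SE 0.08, limma adjusted p = 9.68e-12), and Cspg4 (NG2) had a log2 change of -0.90. Those that rose were Bcas1 (3.53), a gene of cells beginning to myelinate, Neu4 and Olig1 (0.44), and the last of these no longer passed once a trend with transcript length was removed (0.14). Sox4 (-3.61) and Vcan (-3.39) fell furthest, and both are also expressed by immature neurons or other progenitors.

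Astrocyte genes mostly rose, 19 of 26 up, 3 down and 4 not called (median 0.95). Aldoc, an aldolase of astrocytes, ranged over 5400.2 to 7964 (median 6289) at P3 and read 43746, 60656, 25214, 53436 and 33729.5 at P56 (log2 change 2.70, SE 0.17, limma adjusted p = 5.10e-10). S100b (4.29), Glul (2.37), which turns glutamate into glutamine, and Gjb6 (3.27), a gap junction protein, rose without overlap. Of the 2 main glutamate transporters, Slc1a2 (GLT-1) rose (1.80), and Slc1a3 (GLAST) was at 0.17 and not called, with 14592 ± 1003 (SD, n = 8) against 16853 ± 4117 (SD, n = 5). Slc1a3 was called higher without P56 library 3 (0.33, limma adjusted p = 0.00175). The 3 that fell were Slc6a11, Slco1c1 and Sox9. Aqp4, the water channel of astrocyte endfeet, was not called at 0.25.

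Microglial genes rose in 23 of 25 cases and fell in none (median 1.36). Tmem119, a marker of resident microglia, ranged over 99.6 to 139.5 (median 109.6) at P3 and read 676, 1072, 505, 1049 and 702 at P56 (log2 change 2.71, SE 0.17, limma adjusted p = 3.07e-10). Selplg (4.10), the P-selectin ligand, Ctss (2.47), a lysosomal protease, and P2ry12 (1.48), the purine receptor of surveying microglia, rose as well, and Cx3cr1, the fractalkine receptor, did so less (0.68). Ptprc (0.20) and Spi1 (0.40) did not pass the test, and Ptprc stood apart in P56 library 5 at 131.

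Cell-cycle genes fell more than any other list, with 36 of 40 lower, 1 higher and 3 not called, at a median log2 change of -3.04. Mki67, the proliferation marker Ki-67, ranged over 1772 to 2701 (median 2178) at P3 and read 50.1, 47.0, 47.7, 65.2 and 69.1 at P56 (log2 change -5.30, SE 0.12, limma adjusted p = 6.22e-15). Every P56 library was thus more than an order of magnitude below every P3 library. Kif11 (-3.59), a motor of the mitotic spindle, Foxm1 (-3.44), which drives mitotic transcription, and Top2a (-4.84), which untangles replicated DNA, fell in the same way. The exceptions were regulators of the start of the cycle: Ccne1 rose (0.92), and Ccne2 (-0.19), Ccnd1 (-0.04) and E2f1 (0.06) were not called.

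Promoters of genes that peak in mitosis are known for 2 short elements, the CCAAT box bound by NF-Y and the cell-cycle homology region (CHR). RefSeq promoters (GRCm38.p6, 250 bases before to 50 after the start) were found for 31 of the 40 listed genes and searched on both strands for CCAAT and for TTTGAA, the common CHR letters. CCAAT occurred in 25 of the 31 (80.6%) against 37.9% of all 27025 promoters, TTTGAA in 17 (54.8%) against 18.1%, and both in 16 (51.6%) against 7.12%. Among the 12696 promoters of tested genes the shares were 38.3% for CCAAT, 12.1% for TTTGAA and 5.14% for both. These are matches of letters, not sites shown to be bound. Promoters of 3 genes that fell are shown to let a reader see where the matches lie, each on the minus strand and read 5′ to 3′, with matches to either motif in capitals. Mki67 lies at chr7:135716330-135716629, with 3 CCAAT and 2 TTTGAA matches; Ccnb2 (log2 change -3.05), a mitotic cyclin, at chr9:70421505-70421804, with 3 and 2; and Cdc20 (-2.78), which triggers anaphase, at chr4:118437294-118437593, with 2 and 1.
Mki67: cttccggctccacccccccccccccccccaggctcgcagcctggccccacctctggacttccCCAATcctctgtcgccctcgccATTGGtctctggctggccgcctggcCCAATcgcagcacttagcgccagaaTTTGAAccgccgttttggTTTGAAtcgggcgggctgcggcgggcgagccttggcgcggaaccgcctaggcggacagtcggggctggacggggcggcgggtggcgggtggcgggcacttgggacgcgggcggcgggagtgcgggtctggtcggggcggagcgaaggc
Ccnb2: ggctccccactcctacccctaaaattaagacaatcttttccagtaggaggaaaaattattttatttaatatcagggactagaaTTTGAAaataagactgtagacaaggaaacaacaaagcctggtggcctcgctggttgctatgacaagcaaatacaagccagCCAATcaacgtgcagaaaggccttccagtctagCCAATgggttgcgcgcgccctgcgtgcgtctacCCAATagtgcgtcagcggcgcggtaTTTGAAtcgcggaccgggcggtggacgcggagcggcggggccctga
Cdc20: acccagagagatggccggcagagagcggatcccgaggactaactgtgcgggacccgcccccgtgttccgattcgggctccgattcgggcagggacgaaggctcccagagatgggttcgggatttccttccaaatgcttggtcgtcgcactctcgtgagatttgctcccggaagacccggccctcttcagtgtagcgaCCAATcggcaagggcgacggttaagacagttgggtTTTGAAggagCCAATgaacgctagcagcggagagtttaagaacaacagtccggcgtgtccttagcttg

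Progenitor and Notch genes also mostly fell, with 23 of 31 lower, 4 higher and 4 not called (median -1.14). Tnc, the matrix protein tenascin-C of radial glia, ranged over 3536 to 6829 (median 5933) at P3 and read 183, 171, 126, 145 and 179 at P56 (log2 change -5.13). Fabp7 (-3.71), a fatty acid carrier of radial glia, and Nes (-2.65), the progenitor filament nestin, fell. Against the list, Hopx (1.87) and Gadd45g (1.36) rose, as did Btg2 and Prom1, and Hes1 (0.30), Eomes (-0.44), Nr2e1 and Emx2 were not called. Hes1 was called higher without P3 library 2, P3 library 6 or P56 library 1 (0.35 to 0.37), and Eomes lower without P56 library 2 (-0.64) and with a common library total (-0.57).

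Genes of immature neurons and axon growth fell almost without exception, 40 of 41 (median -1.78). Dcx, the microtubule protein of migrating neurons, ranged over 29402 to 43099 (median 38017) at P3 and read 1165, 975, 1255, 826 and 1211 at P56 (log2 change -5.11, SE 0.11, limma adjusted p = 3.70e-15). Dpysl3 (-5.30), Dpysl5 (-4.52) and Crmp1 (-3.02), all of the collapsin response mediator family that shapes growth cones, and Tubb2b (-4.88), a tubulin of young neurons, fell without overlap. Gap43, of the growth cone membrane, fell less (-1.83). Neurod1 alone rose (0.70), with overlapping libraries; it is also a gene of cerebellar granule cells, and P3 library 1 stood apart at 1914. Its call was lost without any one of P56 libraries 1, 2 and 4 (limma adjusted p = 0.0686 to 0.0828).

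Presynaptic genes rose in 25 of 40 cases and fell in 7 (median 0.70). Snap25, a membrane fusion protein of the synapse, ranged over 11168 to 18490.2 (median 12229) at P3 and read 91329, 98229, 110244, 96354 and 91592 at P56 (log2 change 2.87, SE 0.11, limma adjusted p = 2.24e-12). Vamp1 (2.98), a vesicle fusion protein, Cplx1 (2.19), the fusion clamp complexin 1, and Rph3a, a vesicle protein, rose without overlap. Those that fell included Syn3 (-2.03), a synapsin of developing neurons.

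Genes of glutamate receptors and the postsynaptic density moved in both directions in similar numbers, 23 up, 20 down and 7 not called of 50. All tested genes did so too (37.2% up and 38.8% down). Camk2a, the kinase of synaptic plasticity, ranged over 5989.5 to 12205 (median 6255) at P3 and read 52557, 73634, 57291, 68088 and 57098 at P56 (log2 change 3.03, SE 0.18, limma adjusted p = 2.71e-10). Grin2c (3.94), the cerebellar NMDA receptor subunit, Grin2a (2.10) and Dlg1 (1.56) rose, while Grin3a (-2.16), Grin2b (-1.24) and the kainate receptor subunits Grik1, Grik2 and Grik3 fell. GABA and glycine genes rose in 18 of 32 cases and fell in 7: Gad1 (1.33), which makes GABA, and the receptor subunit Gabrd (4.31) rose, and the foetal glycine receptor subunit Glra2 (-2.35) fell. Of 52 voltage-gated channel genes 30 rose and 15 fell. Kcnc1 (2.18), the Kv3.1 potassium channel of fast-spiking cells, and Kcna1 (3.11), of the axon, were among the risers, and Hcn4 (-2.05), a pacemaker channel, and Scn3a (-2.49), the embryonic sodium channel, among the fallers.

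These opposite movements within a family were followed in 30 pairs. Apart from a beta-globin pair of red blood cells, each was a gene known from early brain and a related gene known from later brain. The log2 ratio of the later to the earlier gene was higher on average at P56 in 27 pairs. It rose in 25 pairs and fell in 1 at an adjusted p under 0.05 over the 30 pairs, in a 2-sided exact permutation test over the 13 libraries, whose smallest possible p is 0.000777 (1 of 1287 assignments; adjusted, 0.000932). In the NMDA receptor, Grin2a over Grin2b went from between -4.42 and -3.66 at P3 to between -1.15 and -0.59 at P56, a rise of 3.34. Both genes moved, Grin2b down and Grin2a up; the counts are not per length, so only the change of a ratio is read, not its level. Tubb4a over Tubb2b changed most of the 30, by 6.33, through a fall of Tubb2b as well as a rise of Tubb4a. Scn1a over Scn3a rose by 4.04, the vesicular glutamate transporters Slc17a7 over Slc17a6 by 3.13, and the matrix proteoglycans Acan over Vcan by 4.50. In GABA-A receptors the ratio of Gabrd to Gabra5 rose by 5.28, with Gabra5 lower (-0.97) and Gabrd higher.

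4 pairs did not pass the test. The chloride exporter Slc12a5 (KCC2) rose (0.97), but so did the importer Slc12a2 (NKCC1, 1.00), and their ratio differed by -0.03 with overlapping libraries (exact permutation test, adjusted p = 0.803). NKCC1 is also made by oligodendrocyte-lineage and choroid plexus cells. Of the lineage, myelin genes rose in 29 of 29 members, and precursor genes rose in 3 and fell in 8 of 15. Choroid plexus genes rose in 8 and fell in 2 of 16. The part of these cells in the ratio was not tested. Ptbp2 over Ptbp1, splicing regulators of neuronal differentiation, differed by -0.06 (exact permutation test, adjusted p = 0.483), and both fell (-1.05 and -0.99). Dnmt3a over Dnmt3b differed by 0.72 (exact permutation test, adjusted p = 0.0604). The beta-globin genes Hbb-bs over Hbb-bt differed by 0.26 (exact permutation test, adjusted p = 0.0824), but they are not an early and late pair of the brain. Elavl3 over Elavl2 was the ratio that fell, with a change of -0.37, with both genes lower at P56 (-1.20 and -0.83).

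**Figure D2:**
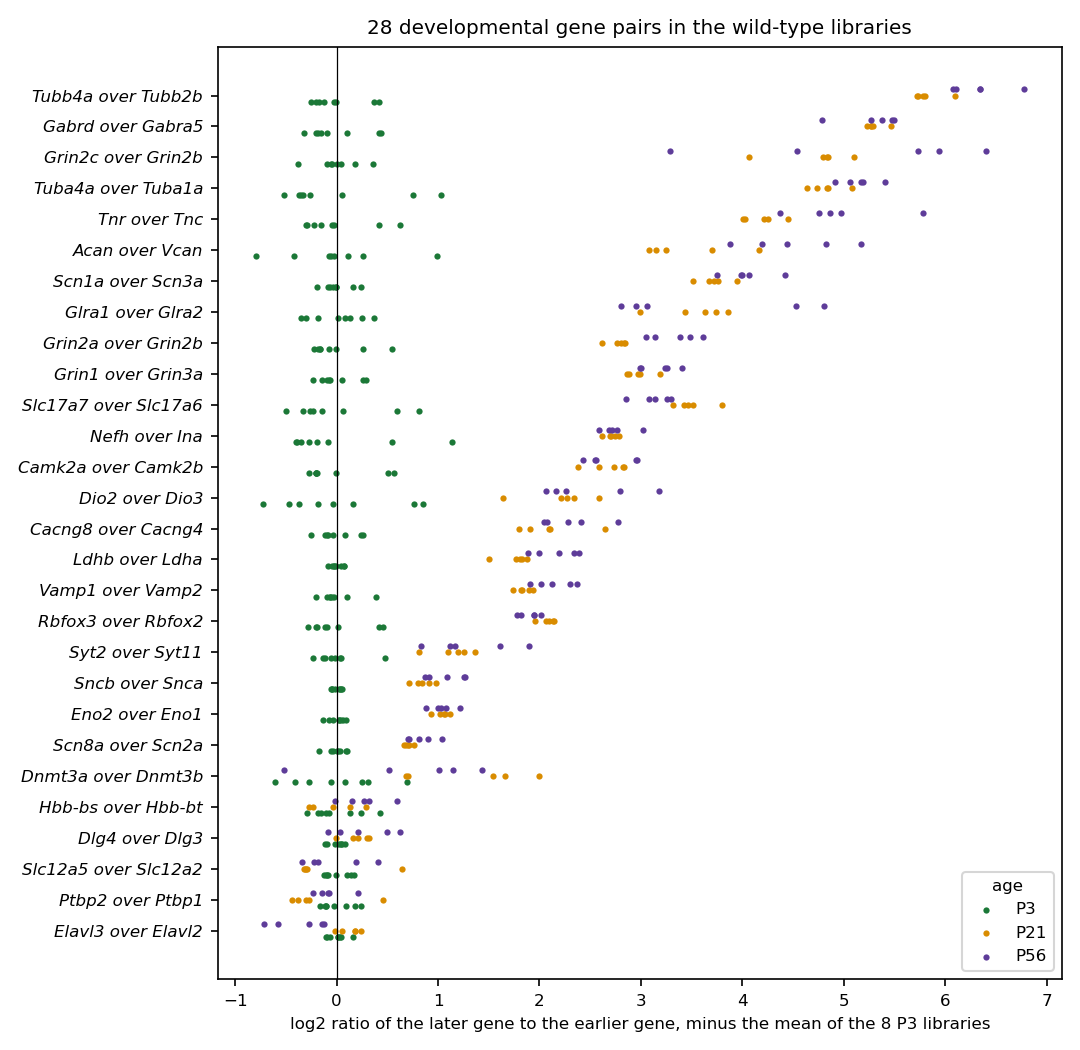
Log2 ratio of the later to the earlier gene of 28 of the pairs in each wild-type library, shown as the difference from the mean of the 8 P3 libraries, with 1 point per library coloured by age. The P56 points lie to the right of all P3 points in 22 pairs and to the left of them only for Elavl3 over Elavl2.

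Of 74 subunits of oxidative phosphorylation 73 rose, none fell, and Ndufv3 (0.26) was not called, at a list median of 0.73. Ndufv3 narrowly missed the threshold (limma adjusted p = 0.0544) and was called higher under several other settings, among them without P56 library 3 (0.35). The range was narrow, from 0.26 to 1.45, the top value being Cox8a of complex IV, which stood at 4428 ± 578 (SD, n = 8) at P3 and 12384 ± 3406 (SD, n = 5) at P56. Sdha of complex II (log2 change 1.16, SE 0.05, limma adjusted p = 1.08e-11) had the smallest p. Glycolysis genes rose in 16 of 23 cases and fell in 2 (median 1.13), led by p by Ldhb (2.09), the lactate dehydrogenase subunit of oxidative tissue, and Pfkm, a phosphofructokinase. The 2 that fell were Pfkp and Slc16a1.

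Cytosolic ribosomal protein genes showed no common direction, with 15 higher, 21 lower and 43 not called of 79. The split rested on single libraries: 28 rose without P56 library 3 and 9 rose without P56 library 2, and with a common library total 9 rose and 35 fell. Rplp0 (-1.22) and Rpl5 (-0.96) fell and Rpl9 (0.86) rose, and all of these genes have pseudogene copies that can take reads.

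Of 25 genes of cholesterol synthesis and uptake 21 fell and 2 rose (median -0.74). Sqle, squalene epoxidase, ranged over 5473 to 6334 (median 5914) at P3 and read 1843, 1939, 1953, 1908 and 1936 at P56 (log2 change -1.62, SE 0.05, limma adjusted p = 9.13e-14). Hmgcs1 (-1.57), an earlier enzyme of the same path, fell without overlap, and Ebp (0.47) and Msmo1 rose. Fatty acid and sphingolipid genes split: 13 of 21 rose, among them Scd1 (2.22), the desaturase, and 7 fell, among them Acaca (-1.43), the first step of fatty acid synthesis.

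**Figure D3:**
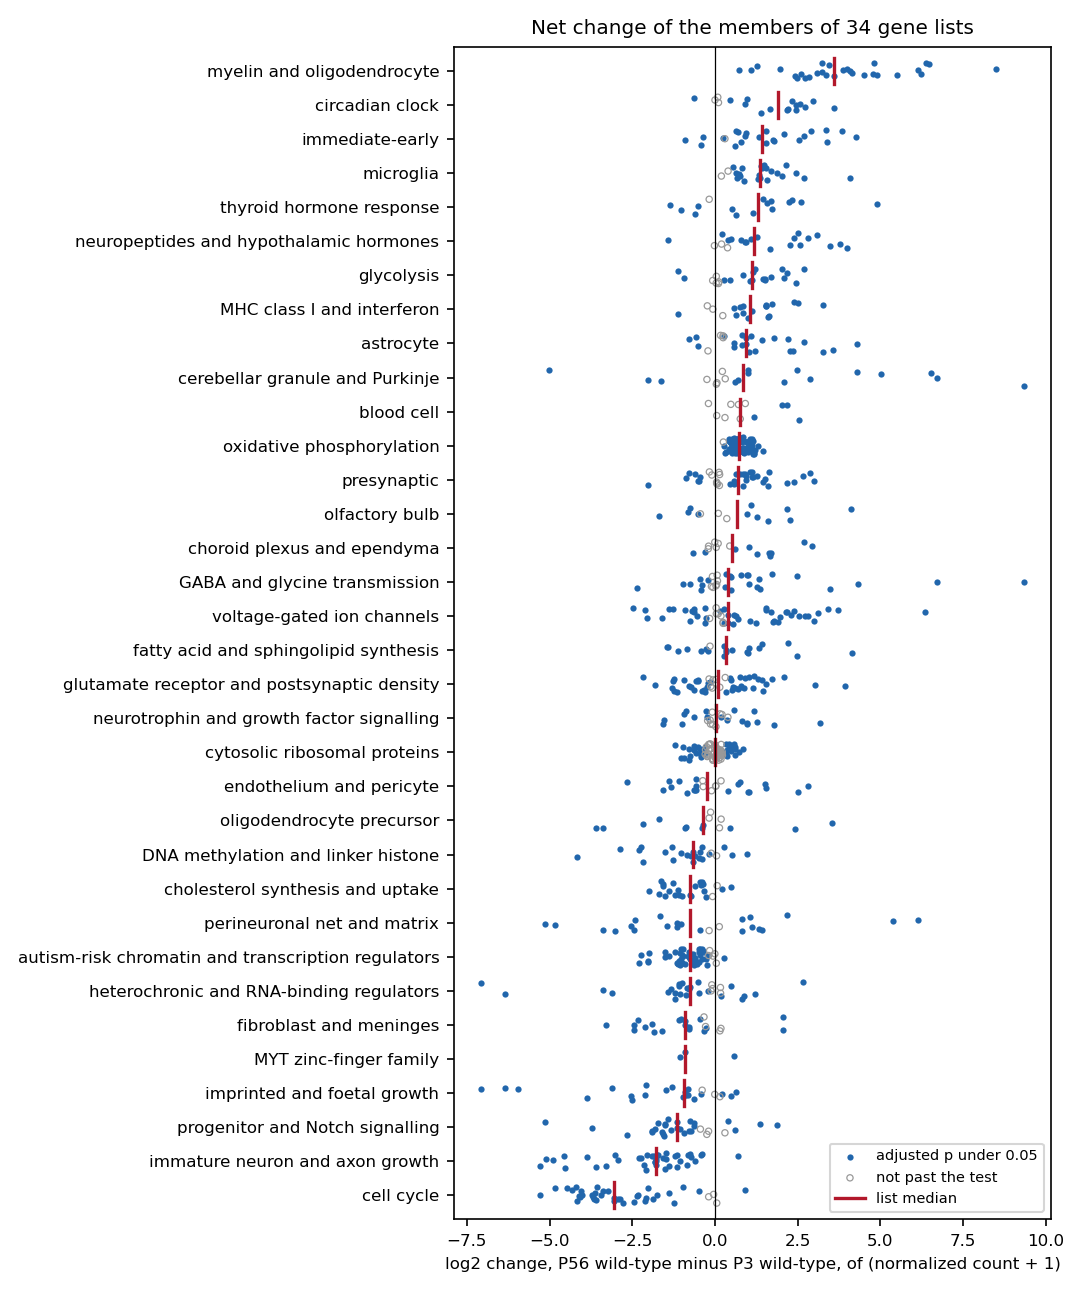
Net log2 change (P56 minus P3, wild-type) of each tested member of 34 gene lists, ordered by list median; blue points passed an adjusted p of 0.05 in limma, open grey points did not, and red bars are list medians. Myelin genes lie wholly to the right of 0 (median 3.61), and all but 4 cell-cycle genes lie to the left with calls (median -3.04).

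Genes of connective tissue were mostly lower at P56. Of 23 fibroblast and meningeal genes tested 17 fell and 2 rose, the fallers led by the collagens Col3a1 (-3.29) and Col4a1 (-2.44); the 2 that rose were Mgp (2.05), an inhibitor of calcification, and Ptgds (2.07), which makes prostaglandin D2 in meninges and oligodendrocytes. Endothelial and pericyte genes split, 9 up and 11 down of 26, as all tested genes did (37.2% up and 38.8% down). Kdr (-2.67), the VEGF receptor of growing vessels, and Cldn5 (-1.38), a tight junction protein, fell, and Ly6c1 (2.80) and the glucose transporter Slc2a1 rose. The number that fell was 7 without P56 library 2. In the matrix, the juvenile proteoglycans Ncan and Vcan fell, and Hapln4 (5.40), a link protein of perineuronal nets, and Acan (1.11), their main proteoglycan, rose. Among choroid plexus genes 8 of 16 rose, including Kl (2.71), klotho, and Ttr (1.04), the thyroxine carrier of cerebrospinal fluid; 2 fell, Otx2 and Foxj1, and 6 were not called. Blood genes were uneven: 4 of 11 rose, 0 fell, and 8 rose when P3 libraries 1 and 2 were left out. Of 8 skeletal muscle and skin genes, which check for other tissue at dissection, 4 fell and 1 rose.

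Cerebellar genes rose in 12 of 20 cases and fell in 3: besides Gabra6 and Cbln3, the Purkinje cell gene Pcp2 rose (4.28), while Atoh1, the factor of dividing granule cell precursors, ranged over 24.1 to 75.1 (median 51.4) at P3 and read 2.48, 0, 0, 0 and 1.20 at P56 (log2 change -5.02, SE 0.35, limma adjusted p = 1.33e-09). P56 libraries differed among themselves for these genes, Gabra6 spanning 779.9 to 4104 and Cbln3 2019 to 10006. In the olfactory list 7 of 14 rose, among them Omp (4.10), the marker of mature olfactory neurons, and Penk (2.26), the enkephalin precursor; 4 fell, Sall3, Sp8, Cdhr1 and Lhx5, and 3 were not called.

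Of 24 imprinted and growth genes 18 fell and 3 rose (median -0.94). H19 ranged over 1637 to 2664 (median 2451) at P3 and read 53.3, 27.5, 28.2, 31.5 and 41.8 at P56 (log2 change -5.97, SE 0.16, limma adjusted p = 3.07e-14), whereas its neighbour Igf2, the foetal growth factor, had a log2 change of -0.98. Nnat, an imprinted gene of neuronal differentiation, fell from 35596 ± 3237 (SD, n = 8) to 6190.5 ± 1364 (SD, n = 5). Of 30 heterochronic and RNA-binding regulators 19 fell and 6 rose, the latter including the splicing factor Mbnl2 (log2 change 2.65, SE 0.09, limma adjusted p = 2.53e-13).

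Several of the falling regulators are textbook targets of let-7, a microRNA family known to accumulate as tissues mature; microRNAs were not measured in these libraries. From the RefSeq table, the 9 mouse let-7 names with the seed GAGGUAG at bases 2 to 8 were taken, and any with another seed left out. The seed is shown in capitals for 3 of them as the letters that targets match.
let-7a: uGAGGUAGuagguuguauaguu
let-7b: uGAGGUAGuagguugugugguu
let-7g: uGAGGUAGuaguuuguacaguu

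Pairing letters (CTACCTC) were searched in the longest annotated 3′ UTR of each gene (GENCODE M21, GRCm38). A match was present in 1583 of 15205 tested genes with such a UTR (10.4%), at 0.0716 per kb. The genes below were picked by name, so their matches are a description with no test. Hmga2, a chromatin protein of growing tissue, held 4 matches, Igf2bp1 4, Lin28b, which blocks let-7 processing, 4, Igf2bp2 1 and Igf2bp3 1. These 5 genes all fell, by log2 changes of -3.40 (Hmga2), -6.35 (Igf2bp1), -1.33 (Lin28b), -3.13 (Igf2bp2) and -7.07 (Igf2bp3). Matches did not go with a fall throughout: Trim71 also held 4 and rose (0.88), and Nr6a1 held 8 and was not called. One match of each of 4 falling genes is printed on the strand of the mRNA, capitals marking the seed match, at chr11:95961778-95961800 (Igf2bp1), chr6:49086787-49086809 (Igf2bp3), chr10:120364224-120364246 (Hmga2) and chr10:45381022-45381044 (Lin28b).
Igf2bp1: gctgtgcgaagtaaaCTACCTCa
Igf2bp3: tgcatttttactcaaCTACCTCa
Hmga2: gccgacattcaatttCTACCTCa
Lin28b: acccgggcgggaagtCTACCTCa

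Chromatin and transcription regulators linked to autism were lower at P56 in 46 of 52 cases and higher in 1, at a median log2 change of -0.76. Adnp, a chromatin-binding homeobox protein, ranged over 4082 to 4922 (median 4658) at P3 and read 1377, 975, 1184, 1009 and 1202 at P56 (log2 change -2.02, SE 0.08, limma adjusted p = 1.75e-12). Tcf7l2 (-2.04), the Wnt effector, Foxp2 (-2.01), a factor of motor and vocal circuits, and Ezh2 (-2.23), the Polycomb methyltransferase, fell further than most, and Ankrd11 rose (0.27). DNA methylation and chromatin-protein genes fell in 19 of 24 cases, led in size by Uhrf1 (-4.16), which maintains methylation in dividing cells; Dnmt3a, the neuronal methyltransferase, had a log2 change of -1.52. The zinc-finger gene named in the heterozygote labels belongs to a family of 3: Myt1l (chr12:29528384-29923213) fell from 11235 ± 538 (SD, n = 8) to 6053 ± 1190.4 (SD, n = 5), a log2 change of -0.91 (limma adjusted p = 8.61e-08), with P56 library 3 apart at 8115 and no overlap with P3. Myt1 fell (-1.07) and St18 rose (log2 change 0.57, SE 0.22, limma adjusted p = 0.0245), the latter no longer past the test without any one of P56 libraries 1, 2 and 4 or with a common library total.

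Lists linked to neuronal activity, the clock and hormones mostly rose. Immediate-early genes, switched on by neuronal activity, were higher in 20 of 24 cases and lower in 3 (median 1.43): Arc ranged over 201 to 371 (median 237) at P3 and read 3836, 6589, 6841, 4689.6 and 4027 at P56 (log2 change 4.27, SE 0.17, limma adjusted p = 1.65e-12), and Fos had a log2 change of 2.55. Handling before death is not given in the labels and was not tested. Clock genes rose in 14 of 18 cases (median 1.92), led by Dbp (log2 change 3.61, SE 0.11, limma adjusted p = 8.53e-14), an output of the clock, at 3474, 4127, 3395, 3894 and 3377 in the P56 libraries against 227 to 359.8 (median 295); the hour of collection is not given and cannot be told apart from age. Thyroid-responsive genes rose in 11 of 16, with Hr (2.23), Klf9 (2.62) and Dio2 (2.32), the enzyme that activates the hormone in the brain; 4 fell, among them Thra, a receptor of the hormone. Antigen presentation and interferon genes rose in 16 of 20, with B2m (1.63), the light chain of class I molecules, while the peptide transporter Tap1 fell (-1.12).

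Neuropeptide genes rose in 18 of 22 tested cases and fell in 1. Hcrt, the orexin precursor of hypothalamic neurons, ranged over 8.67 to 30.6 (median 14.2) at P3 and read 143, 293, 417, 180.1 and 141 at P56 (log2 change 3.79, SE 0.29, limma adjusted p = 5.59e-09), and Oxt, oxytocin, had a log2 change of 4.00. Pomc (3.07) rose too, but it is also a pituitary gene and read 4148 in the P56 library with pituitary transcripts; without that library its log2 change was 2.01. Growth factor genes were balanced, 10 up and 8 down of 27, as were all tested genes (37.2% up and 38.8% down). Fgf1 (3.17) and Bdnf (1.78) were higher and Ngfr (-1.58), the p75 neurotrophin receptor, was lower.

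Which genes were back near their newborn level at P56 after moving away in between was asked with the 5 P21 libraries. A gene counted as returned when it changed at least 1.5-fold from P3 to P21 with an adjusted p under 0.05, changed the opposite way from P21 to P56 with an adjusted p under 0.05, and had a 95% interval of P56 against P3 within 1.5-fold. These values chose the genes, so they are a description with no test. Of 18219 genes tested 8981 passed the first condition, 588 also the second, and 155 all 3, which is 0.851% of the genes tested. Up and then down went 78 of them, and down and then up 77. Near is not equal: the P56 mean was still on the P21 side of P3 in 70 of the 78 and 64 of the 77, and the difference from P3 passed the test in 57 and 33. With a common library total the rule gave 44 up then down and 138 down then up. At the border, Bmi1 (interval from -0.58 to -0.30 in log2) and Paxbp1 (-0.58 to -0.09) were just inside the limit of 0.58, and Wdr76 (-0.59 to -0.05) and Atxn7l2 (-0.59 to -0.18) just outside.

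Among the 78 genes that peaked at P21, Kif19a, a kinesin motor, had the largest first step: it ranged over 123 to 211 (median 149.6) at P3, read 319, 515, 442, 367 and 351 at P21 and 216, 202, 140.0, 171 and 173 at P56, so every P21 library lay above the other ages. Nfasc, neurofascin, which anchors myelin and channels at the node of Ranvier (chr1:132564690-132741797), ranged over 7899 to 9694 (median 8854) at P3, read 22044, 20956, 21441, 20044 and 14851 at P21 and 11709, 8919.9, 12183, 9576 and 10973 at P56. Its lowest P21 value came from library 5, the one with low glial genes, and still exceeded all P56 libraries. Tmeff2 went from a P3 mean of 1704 to 3606 and 2168. Plod1, a collagen lysyl hydroxylase (first step 0.94, second -0.66), Rap1a, a small GTPase (0.89 and -0.56), Myadm (0.88 and -0.67) and the phosphatase Dusp15 (0.86 and -0.44) came next in size, followed by Tmem132d, Cers1, which makes ceramide, and Ccn2, a matrix factor. Cers1 shares its transcript with Gdf1, which averaged 28.2, 452 and 439 by age. How reads were split between the 2 is not known, so the return of Cers1 is uncertain. Acta2, smooth muscle actin of vessel walls, averaged 219, 392 and 240.0, but its P56 libraries were spread from 104 to 393.

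Among the listed genes, the means of Jun, an immediate-early factor, were 1391, 2305 and 1658 by age, and those of Npy, the neuropeptide of interneurons, 1533, 2324 and 1798. Gabbr2, a GABA-B receptor subunit (0.66 then -0.31), Cacna2d3, a calcium channel subunit (0.66 then -0.39), and Msmo1, of cholesterol synthesis (0.62 then -0.41), completed the listed members that rose and came back. All 5 kept a P56 mean slightly above P3.

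Among the 77 genes that dipped at P21, Inhba, the activin subunit, ranged over 349 to 537 (median 454) at P3, read 194, 213, 174, 349 and 267 at P21 and 391, 272, 614, 338 and 409 at P56, with 1 P21 library inside the P56 range. Mir124-2hg, host transcript of a neuronal microRNA, ranged over 1734 to 2192 (median 2049.9) at P3, read 1185, 1016, 1087, 995 and 1226 at P21 and 1595, 1619.6, 1531, 1554 and 1649 at P56, and its 3 ages did not overlap, so its return was partial. Sbk3 (first step -1.12), Prickle3 (-1.12 and 0.96), of planar polarity, and the kinesin-like Kif27 (-1.11 and 0.89) had the largest dips among genes with a standard symbol. Ubap1l (-0.97 and 0.93), Hdx (-0.96 and 0.68), Pus10 (-0.94 and 0.73), a pseudouridine synthase, and Man2c1 (-0.83 and 0.51), a cytosolic mannosidase, dipped as well. Pnisr (-0.83 and 0.68) and Srsf11 (-0.79 and 0.44), both serine- and arginine-rich splicing-related proteins, Paxbp1 (-0.93 and 0.60) and Fgf3 (-0.86 and 0.87), a growth factor at low counts, followed this course. Six3, a factor of forebrain identity (-0.81 and 0.43), and the ribosomal gene Rps19 (-0.63 and 0.50) were further members.

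**Figure D4:**
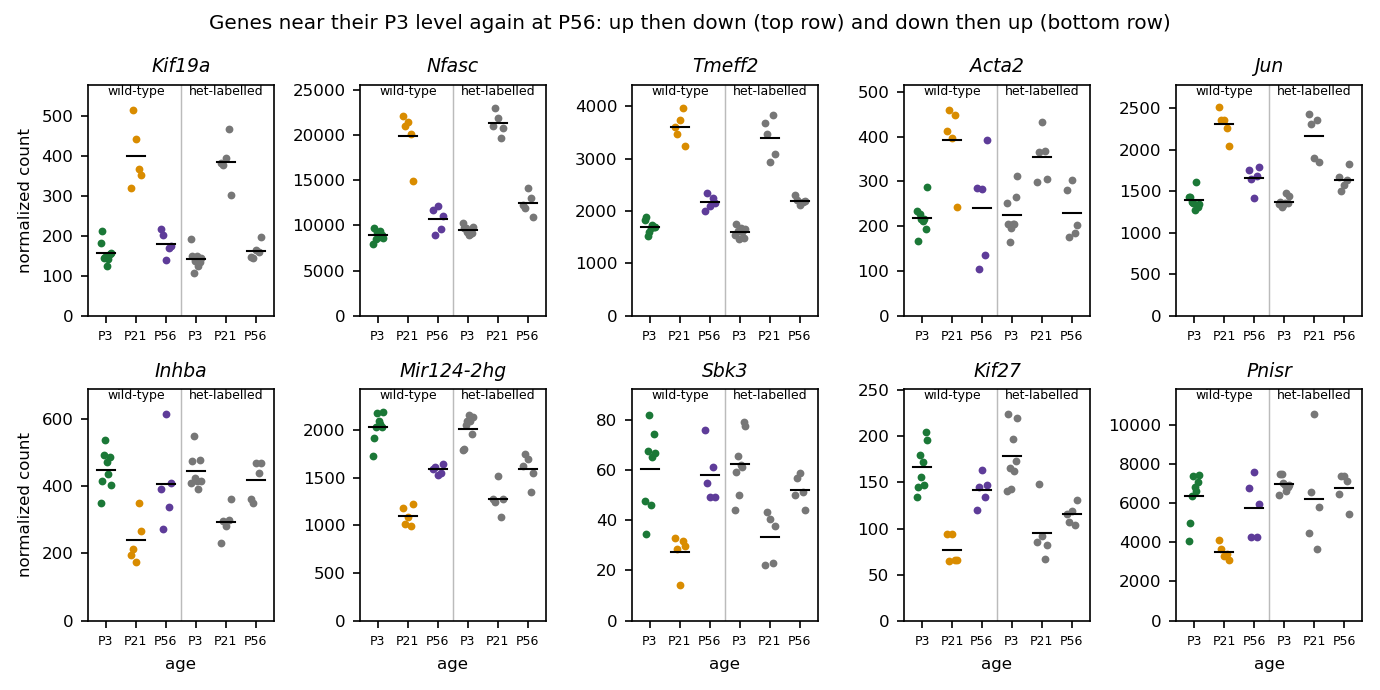
Normalized count on a linear axis from 0 for 5 genes that rose and came back and 5 that dipped and came back, with points for libraries (green, orange and purple for wild-type P3, P21 and P56; grey for libraries labelled heterozygote) and black lines for group means. Nfasc and Kif19a peak at P21 in both sets of libraries, whereas the grey P21 points of Pnisr spread both below and above the P3 points.

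The libraries labelled heterozygote played no part in choosing these genes and give them a second reading, with each step called at an adjusted p under 0.05 in limma and no minimum size. Of the 78 genes that rose and came back, 77 rose from P3 to P21 there (98.7%, against 38.3% of all 18298 genes tested there). Of the 78, 62 did this and then fell (79.5%, against 3.61% of all genes), and 55 met all 3 conditions (70.5%, against 2.01%). Of the 77 that dipped, 54 fell from P3 to P21 there (70.1%, against 38.5% of all genes). From P21 to P56 18 rose (23.4%, against 6.47%), 17 did both (22.1%, against 1.89%), and 14 met all 3 conditions (18.2%, against 1.21%). The 14 became 23 without P21 heterozygote-labelled library 3. Nfasc ranged over 8962 to 10256 (median 9496) at P3 and read 21009, 22919.7, 21901, 19672 and 20767 at P21 and 12287, 11896, 14089, 13068 and 10889 at P56 in these libraries, whereas Pnisr read 4468, 6569, 10554, 3673 and 5793 at P21, spread wider than its P3 range of 6394 to 7480.1 (median 6938). Inhba, Mir124-2hg and Rps19 were among the 14. Most other dipping genes named above were not: Prickle3, Kif27, Hdx, Pus10, Man2c1, Srsf11, Paxbp1, Fgf3 and Six3 fell there without a called rise to P56. The fall of Ubap1l was not called there, and Sbk3 met both steps with an interval beyond the limit. The rule applied to these libraries alone found 149 genes, of which 52 were shared, 33.5% of the wild-type genes and 34.9% of the others.

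**Figure D5:**
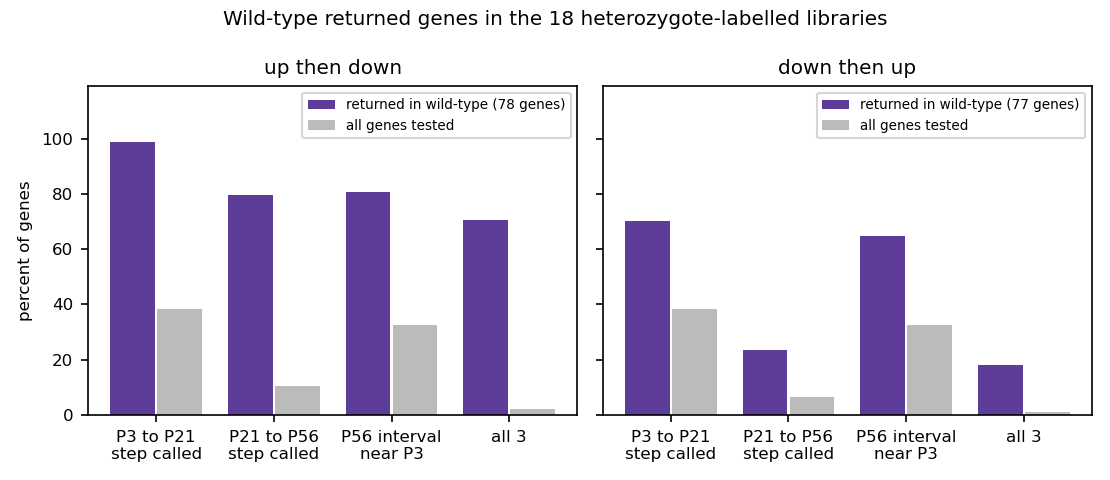
Percent of the wild-type returned genes (purple) and of all 18298 genes tested (grey) that met each condition of the rule in the 18 libraries labelled heterozygote, for genes going up then down (left, 78) and down then up (right, 77); bars start at 0. All 3 conditions were met by 70.5% of the first group and 18.2% of the second, 14 genes, which became 23 without P21 heterozygote-labelled library 3.

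Some larger excursions came back without meeting the rule. Haemoglobin transcripts of red blood cells were among them: Hba-a1 ranged over 504 to 4716 (median 1157) at P3, read 7456, 19132, 19848, 7147 and 13825 at P21 and 2077, 1606, 1691, 3192 and 2171 at P56. Hba-a2 followed with means of 2347, 17830.2 and 3014, and Alas2, of haem synthesis in red cells, with 115, 836 and 146. P3 libraries 1 and 2 held the highest Hba-a1 of their group, the P56 and P3 libraries overlapped, and the interval was wider than the rule allows. Without those 2 libraries the P56 level passed as above P3, with log2 changes of 1.00 for Hba-a1 (limma adjusted p = 0.00753), 1.32 for Hba-a2 and 1.24 for Alas2. The amount of blood left in the tissue was not tested. The oligodendrocyte gene Enpp6 came part of the way back, with means of 235, 1524 and 509.5. Separately, in 14 genes P56 was called on the far side of P3, and 1 of these, Ccnjl, also met the rule. Gpr17, a receptor of committed oligodendrocyte precursors, averaged 2998 at P3, 5789.7 at P21 and 1633 at P56; Srd5a1, a steroid reductase, 670.1, 1030.2 and 426; and the abundant non-coding RNA Snhg11 went the other way, 36509, 23149 and 48249.

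The libraries labelled heterozygote underwent nearly the same net change. There 6942 of 17942 genes tested rose from P3 to P56 (38.7%) and 7351 fell (41.0%). Of the wild-type calls 93.5% were called in the same direction there, which is 89.0% of the calls there, and 2 genes were called in opposite directions. The difference between the net changes of the 2 labels passed an adjusted p of 0.05 for 0 of 18638 genes (0%) in limma, with 958 at an unadjusted p under 0.05 and 1 called when libraries were weighted by quality.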

How the data were processed

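Whole-brain RNA of 36 mouse libraries was measured by RNA sequencing, in 6 groups of age and genotype label. The deposited values are signal: estimated counts per gene normalized across libraries, made with Salmon 1.1.0, DESeq2 1.26.0 and R 3.6.2 on GRCm38, per the submitters' processing notes; the annotation release is not given in the sources used here. Normalization assumes that most genes do not change, and whole reads could not be recovered, so no count model or counting interval was used. Identifiers were matched to GENCODE M21 (19150 of 19164). Values were taken as log2(value + 1), which understates the change of low genes, and genes with at least 10 in 5 libraries of the comparison were tested with limma 3.58.1 (R 4.3.3, mean trend, robust variance) and Benjamini-Hochberg adjustment. Pair ratios were tested with an exact permutation test. The code was tested on simulated data. Members and lists were chosen with earlier results of these data known. Named were the 12 largest changes each way with a mean of at least 20 among genes with a standard symbol (predicted and clone-named genes left out), list members of smallest p, against the majority or not called, and a few more for their known roles. The labels name a kit that does not keep strand, so overlapping antisense genes cannot be told apart. Alternatives covered scaling, filters, the added value, limma options, transcript length and each library left out. A few genes are not reported here.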

Additional observations from a re-analysis of the deposited data

Results flagged for a closer look

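In groups of 5 or 8 libraries, a library was picked out where its gap to the nearest other exceeded Dixon's 95% critical value, which chance gives in about 1 of 20 groups; 37 of the 437 groups examined were picked out. P3 library 1 accounted for 10 of them and P56 library 5 and P21 library 5 for 6 each. No cause was tested for any of them.

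P3 library 1 was highest of its group for Gabra6 (17.7), Neurod1 (1914), Hcrt (30.6), Ccne1 (323), Cldn5 (2416) and Rap1a (1563), and lowest for Acaca (7405), Foxp2 (1812), Snhg11 (26013) and the pseudogene Gm12671 (284). P3 library 2 was highest for Slc12a5 (11605), Oxt (37.2) and Prl (2.84) and lowest for Igf2 (8513). P3 library 4 was lowest for Hist2h2aa2 (0) and Gm10222 (681), P3 library 5 highest for Prickle3 (102), and P3 library 6 highest for Tap1 (220.3) and Jun (1609).

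P21 library 5 was lowest for Nfasc (14851), Plod1 (957) and Msmo1 (3274), 3 genes that rose and came back, so their P21 means would be higher without it. It was highest for Npy (2929), Gabbr2 (15542) and Myadm (3433). P21 library 3 was lowest for Sbk3 (14.1).

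P56 library 5 was highest for the pituitary genes Gh (15379), Prl (1816) and Pomc (4148), the leukocyte gene Ptprc (131), and Akr1c19 (7.07) and Eif4a-ps4 (10.2), both near 0 in the rest of the group. P56 library 3 was highest for Myt1l (8115) and Mbnl2 (9344), P56 library 1 for Kcnc1 (15096) and P56 library 4 for Gm49450 (105), and P56 library 2 was lowest for Prickle3 (28.5).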

How the results depend on the processing

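Of 374 comparisons of a main count or median with an alternative setting, 349 stayed within 1.5 times, or within a small set difference for the median. This rule compares numbers of genes and not which genes they are. With a common library total the median log2 change of all genes was -0.15, ribosomal protein genes were 9 higher and 35 lower, the MYT family had 0 higher, and returned genes numbered 44 up then down and 138 down then up, 47 of all of them shared with the reported set. Quantile normalization left 2 lower genes of skeletal muscle and skin. A filter at 50 left 1 higher blood gene, 0 higher pituitary genes and 1 lower muscle gene, since fewer genes were tested. Leaving out the libraries farthest from their age, a choice made after seeing the data (P3 libraries 1 and 4, P21 library 5 and P56 library 3), gave 25 higher ribosomal genes and 2 lower muscle genes, and leaving out P3 libraries 1 and 2, likewise added later, 8 higher blood genes. The returned genes numbered 11 with a 2-fold excursion (5 up then down, 6 down then up), 494 with any called excursion (279 and 215) and 7 with a narrower limit on the interval (4 and 3). Library quality weights gave 1 gene with a genotype difference in the net change. E2f1 changed sign with a common total (-0.0798), with the length trend removed (-0.0537), without the farthest libraries (-0.00791) and with 1 library left out at a time (-0.00494 to 0.108), and Ccnd1 with the length trend removed (0.0229); neither passed there. Other genes not called in the report passed under some settings, for example Slc1a3 with quality weights (0.23), with the length trend removed (0.40) and without the farthest libraries (0.31), Ndufv3 with quality weights (0.31), Hes1 in fits of 18 or 36 libraries, Eomes with quantile normalization (-0.48), Ccnd1 (-0.18) and Ccne2 (-0.32) with a common total, Ptprc with the length trend removed (0.60), and Aqp4 (0.39) and Spi1 (0.56) without the farthest libraries. The cause of these shifts was not tested.

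Leaving out 1 library at a time gave 7 to 13 lower endothelial genes, 1 to 2 higher pituitary genes, 9 to 28 higher and 17 to 33 lower ribosomal genes and 0 to 1 higher MYT genes. The same gave 112 to 172 returned genes (50 to 87 down then up, the lowest without P56 library 1), 12 to 23 of the dipping genes meeting all 3 conditions in the heterozygote-labelled libraries, the highest without P21 heterozygote-labelled library 3, and 0 to 1 genes with a genotype difference. Libraries of the same number did not deviate together (correlations of -0.10, 0.02, 0.03, -0.04 and -0.02, none best with its own number), so the numbers do not pair them. A fit with the replicate number as a block gave 5902 higher and 6164 lower genes and 91 returned genes, 37 of them down then up and 81 shared with the reported set. Depth before normalization is unknown, which limits genes of low value most.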

Other observations

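Some genes were listed at 0 in every library of one age, most of them pseudogenes or members of families with near-identical copies, for which an estimated count can fall to 0 when reads are assigned to another copy. In these data 11 genes with a P3 mean of at least 20 were at 0 in all 5 P56 wild-type libraries, and 3 with a P56 mean of at least 20 were at 0 in all 8 P3 wild-type libraries. Gm5641, a transcribed pseudogene, ranged over 775 to 2446 at P3 and was at 0 in all P21 and P56 wild-type libraries. Gm10222 ranged over 681 to 9455 at P3, 2899 to 11395 at P21 and 0 to 7005 in the P56 libraries labelled heterozygote. Rps6-ps4 ranged over 1407 to 2631 at P3 and 0 to 576 in the P56 libraries labelled heterozygote.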
